A study of Mus musculus with 4 samples.

Results

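The library labelled Klf4 dEC Nos3 null was set against the library labelled Klf4 dEC in 19 of the 23 numbered nucleus clusters of mouse kidney cortex, the clusters 0 to 19 except 10. A gene entered in a cluster when its level reached 0.5 unique molecular identifiers (UMIs, each 1 captured RNA molecule) per 10000 UMIs in either library. By this rule 8116 of 21046 genes entered in at least 1 cluster and 2057 entered in all 19, which gave 79147 gene and cluster pairs from 38 of the 92 columns of the deposited table. Each pair has a log2 ratio of (level + 0.1) in Klf4 dEC Nos3 null to (level + 0.1) in Klf4 dEC, and a ratio of at least 1 or at most -1 is called past the limit. Where a fold is given, it is the ratio of the levels without the added 0.1, with its 95% exact binomial counting interval in brackets.

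The series measured nuclear RNA by droplet single-nucleus sequencing in 4 genotypes of C57BL/6J mice with 1 library each. Klf4 dEC is labelled as lacking the zinc-finger transcription factor Klf4 in endothelial cells. Klf4 dEC Nos3 null is labelled as lacking it there and also as null for Nos3, the endothelial nitric oxide synthase, so that both sides of the comparison carry the Klf4 deletion and differ in Nos3. The other libraries, shown only as levels, are the Klf4 flox/flox control and Nos3 null. The labels name neither the promoter driving the deletion nor the part of either gene removed, and 3′ reads outside a removed part would not show it; the number of mice per library is also not stated in them. With 1 library a side there is no replicate and no test, and each interval covers counting error only, not the spread between mice or preparations.

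The targeted genes do not separate these libraries in the labelled direction. In cluster 10, the endothelial cluster, Nos3 stood at 1.26 (control), 0.930 (Klf4 dEC) and 1.52 (Nos3 null), with 2.07 in Klf4 dEC Nos3 null (interval 1.61 to 2.61), which was the highest of the 4. Klf4 stood there at 0.621, 0.779, 0.445 and 0.824 in the same order. In the 19 clusters Nos3 never reached 0.5, and its highest level was 0.135 in Klf4 dEC Nos3 null, in cluster 13. Klf4 entered in cluster 13 alone, at 0.213 (control), 0.965 (Klf4 dEC) and 0.0596 (Nos3 null), with 0.0759 in Klf4 dEC Nos3 null, a 12.7-fold (3.31 to 114) lower level. Every direction below is therefore a direction between labelled libraries.

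The 19 clusters hold most of the nephron. Markers placed clusters 0, 1, 3, 5, 6 and 12 as proximal tubule-like, clusters 2, 4 and 19 as thick ascending limb-like, 18 as thin limb-like, 9 as distal convoluted tubule-like, 11 as connecting tubule-like, 8 as principal cell-like and 14 and 16 as intercalated cell-like. Cluster 15 is podocyte-like, so not tubule, and clusters 7, 13 and 17 were left without a name. Their top marker types were proximal tubule in cluster 7, stromal in cluster 13 and connecting tubule in cluster 17. The second types there were thick ascending limb, proximal tubule and principal cell in the same order. In cluster 12 thin limb was the second type. A segment of several clusters is given below by their mean level, each cluster counting by its nuclei, and levels listed as 4 values begin with the control, then give Klf4 dEC, then Nos3 null and end with the library under study, Klf4 dEC Nos3 null. As inferred from the table, the 19 clusters hold 6357, 6450, 6605 and 5162 nuclei in that order. The median UMIs per nucleus was higher in Klf4 dEC Nos3 null than in Klf4 dEC in 18 of 19 clusters, and its median over clusters was 4338.5 against 3364.

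The proximal tubule reclaims most of the filtered glucose, amino acids and bicarbonate and burns fatty acids to do so. The thick ascending limb takes up sodium, potassium and chloride through Slc12a1 and secretes uromodulin, the product of Umod. The distal tubule and collecting duct set the final salt and water content of urine, and the circadian clock runs in all of these cells through a loop in which Arntl with Clock or Npas2 drives the Per and Cry repressors.

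Differences between the libraries were mostly small and mostly confined to few clusters. Of the 79147 pairs, 2391 (3.02%) were past the limit higher in Klf4 dEC Nos3 null and 1905 (2.41%) lower. Cluster 12, the shallowest proximal tubule-like cluster, alone gave 1320 of these, with 15.3% of its genes higher and 10.6% lower. Without it, 2.17% of pairs were higher and 1.84% lower. In the other proximal tubule-like clusters the shares higher and lower were 1.58% and 1.29% in cluster 0, 1.46% and 1.28% in cluster 1, 1.06% and 1.0% in cluster 3, 1.45% and 1.32% in cluster 5 and 1.47% and 1.49% in cluster 6. In the thick ascending limb-like clusters they were 1.28% and 1.43% in cluster 2, 0.409% and 0.795% in cluster 4 and 6.27% and 3.83% in cluster 19, which holds 54 nuclei in Klf4 dEC Nos3 null. Further along the tubule they were 4.94% and 4.06% in cluster 18, 0.656% and 0.511% in cluster 9, 0.802% and 0.676% in cluster 11, 1.59% and 1.83% in cluster 8, 1.08% and 1.31% in cluster 14 and 2.56% and 2.05% in cluster 16. The rest had 2.9% and 1.93% in cluster 15, 0.673% and 0.937% in cluster 7, 3.54% and 4.08% in cluster 13 and 4.36% and 2.45% in cluster 17. The highest shares thus stand in clusters with few nuclei or few UMIs.

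Few genes were past the limit broadly. Of the genes past the limit higher, 1530 were so in 1 cluster, 304 in 2 to 4, 22 in 5 to 9 and 1, Bcl6, in 10 or more. Of those past it lower, 1022 were so in 1 cluster, 239 in 2 to 4, 40 in 5 to 9 and 5 in 10 or more, namely Gm15261, Gm16599, Keg1, Lrrc4 and Wdr17. Among the 2057 genes entered in all 19 clusters, 501 were past the limit in at least 1 cluster, 3 in 10 or more and 0 in all 19. In these genes, 35.3% of the summed squared log2 ratios lay in the gene's mean over clusters, and the rest in departures of single clusters from it.

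Shifts carried across clusters were taken as a median log2 ratio of at least 0.5 in size with 1 direction in at least 90% of the clusters entered. Of 2938 genes entered in at least 15 clusters, 49 (1.67%) were higher in Klf4 dEC Nos3 null by this rule and 42 (1.43%) were lower. The higher genes were led by Bcl6, Gm47283, Ypel2, Itga6, Kdm6b and Actb, and the lower genes by Gm15261, Keg1, Lrrc4, 2310040G07Rik, Gm16599 and Gm36388. In 47 of the 49 higher genes Klf4 dEC Nos3 null had the highest median level of the 4 libraries, and in 28 Klf4 dEC had the lowest. Among the 42 lower genes, Klf4 dEC was the highest library in 25, and the lowest was Nos3 null in 22 and Klf4 dEC Nos3 null in 17. The rule used the levels of both compared libraries, so these ranks are partly set by the choice of genes.

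**Figure D1:**
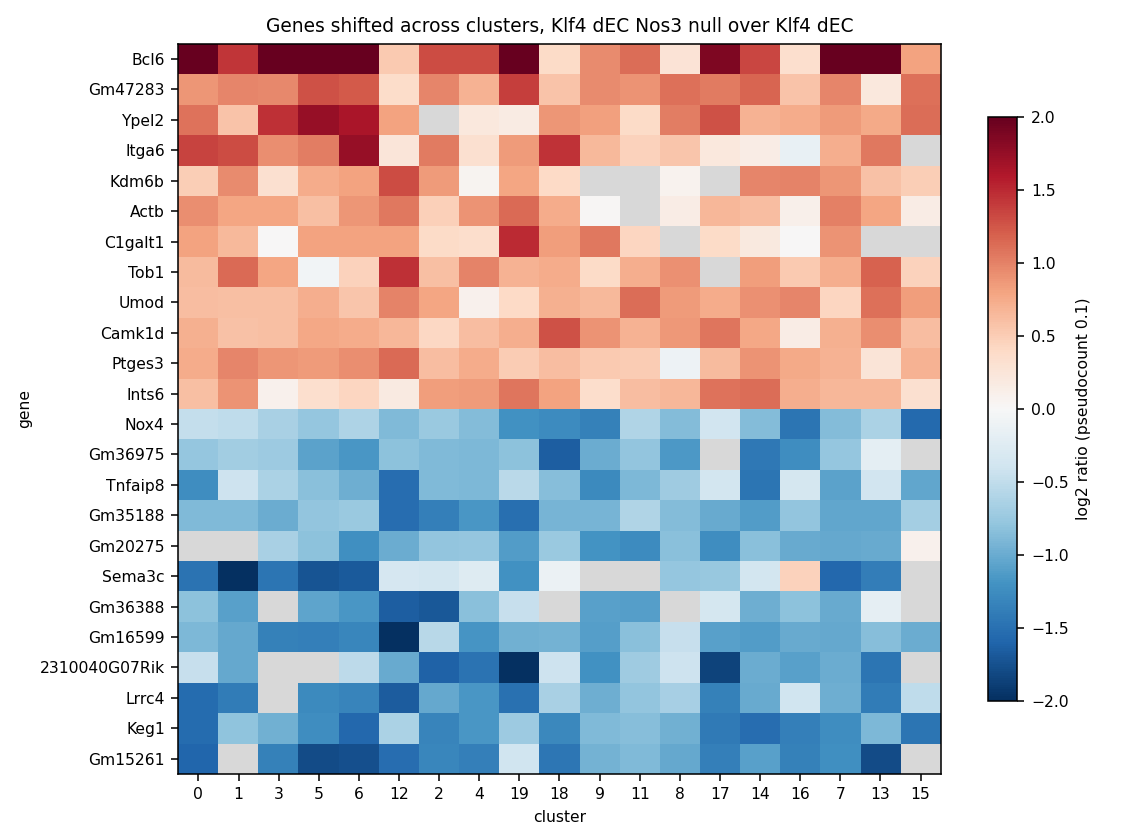
Log2 ratio of Klf4 dEC Nos3 null to Klf4 dEC (color, pseudocount 0.1) for the 12 highest and 12 lowest genes shifted across clusters (rows) in the 19 clusters (columns), with gray where a gene did not enter. Bcl6 is above 0 in 19 of 19 clusters and Keg1 below 0 in 19 of 19.

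Bcl6, a zinc-finger transcriptional repressor on chromosome 16 from 23965050 to 23988866 in GRCm38, had the highest median log2 ratio of the shared genes, 1.34. In proximal tubule-like nuclei it stood at 3.26 (control), 1.12 (Klf4 dEC) and 3.07 (Nos3 null), with 5.09 in Klf4 dEC Nos3 null, a 4.53-fold (4.30 to 4.78) higher level. Klf4 dEC was the lowest library and Klf4 dEC Nos3 null the highest, with the other libraries near each other between them. In thick ascending limb-like nuclei the levels were 0.886, 0.458, 1.23 and 1.35 in the same order, a 2.94-fold (2.40 to 3.61) higher level. By cluster the log2 ratio of Bcl6 ran from 2.64 in cluster 6 down to 0.27 in principal cell-like cluster 8, where the 1.23-fold difference has an interval (0.891 to 1.71) that includes 1.

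Keg1, which belongs to a family of glycine N-acyltransferases, was lower in 19 of 19 clusters with a median log2 ratio of -1.25. Its proximal tubule-like level was 15.6 (control), 28.4 (Klf4 dEC) and 16.2 (Nos3 null), with 13 in Klf4 dEC Nos3 null, 2.18-fold (2.14 to 2.22) lower. Klf4 dEC stood above the other 3 libraries there. In thick ascending limb-like nuclei, where Keg1 is a minor transcript, it stood at 1.30, 1.87, 5.58 and 0.742, 2.53-fold (2.19 to 2.91) lower, and there Nos3 null was the highest library. The summed level of 7 proximal tubule markers had the same highest library there. In the same order it was 12.5, 13.8, 45.0 and 9.58 in cluster 2 and 12.1, 11.9, 41.7 and 8.79 in cluster 4. Whether the Keg1 order is part of that pattern was not tested.

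Other shared genes differed by less, with varied orders of the libraries. Ypel2, a member of the yippee-like family, stood in proximal tubule-like nuclei at 0.578 (control), 0.696 (Klf4 dEC) and 0.942 (Nos3 null), with 1.73 in Klf4 dEC Nos3 null, 2.49-fold (2.32 to 2.68) higher. Itga6, the laminin-binding integrin alpha 6, stood at 1.51, 0.825, 1.25 and 1.88 in the same order, 2.28-fold (2.13 to 2.44) higher, with Klf4 dEC again lowest. The beta-actin gene Actb was 1.96-fold (1.80 to 2.13) higher and the histone demethylase gene Kdm6b 1.74-fold (1.59 to 1.91) higher in these nuclei. Gm47283, C1galt1 (an O-glycan galactosyltransferase), Tob1 (an antiproliferative factor), Camk1d (a calmodulin-dependent kinase), Ptges3 (an Hsp90 co-chaperone) and Ints6 (a subunit of Integrator) had median log2 ratios from 0.66 for Ints6 to 0.98 for Gm47283.

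The lower genes held enzymes, adhesion molecules and many noncoding RNAs. Sema3c, a secreted semaphorin, stood in proximal tubule-like nuclei at 2.39 (control), 2.20 (Klf4 dEC) and 1.30 (Nos3 null), with 0.616 in Klf4 dEC Nos3 null, 3.57-fold (3.31 to 3.86) lower. Nox4, the main NADPH oxidase of the tubule, stood at 18, 19.7, 16.6 and 11.7, 1.68-fold (1.65 to 1.72) lower. Tnfaip8, a TNF-induced regulator of cell death, stood at 20.1, 23.1, 25.8 and 11.9, 1.95-fold (1.91 to 1.99) lower. In these 3 genes Klf4 dEC Nos3 null was the lowest of the 4 libraries. Gm15261, with the lowest median (-1.35), had another order: in thick ascending limb-like nuclei it stood at 1.14 (control), 2.69 (Klf4 dEC) and 0.193 (Nos3 null), with 1.04 in Klf4 dEC Nos3 null. Lrrc4, a leucine-rich repeat adhesion protein, was 2.97-fold (2.68 to 3.28) lower in proximal tubule-like nuclei. The remaining genes by the rule, 2310040G07Rik, Gm16599, Gm36388, Gm20275, Gm35188 and Gm36975, had medians from -1.02 to -0.88.

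Nuclei of the segments were present in different shares in the libraries. For the proximal tubule and the thick ascending limb, transcripts of the segment seen in other clusters differed in the same direction as its share. Proximal tubule-like nuclei were 42.04% (40.69 to 43.40) of the 19 clusters in Klf4 dEC Nos3 null and 51.09% (49.86 to 52.31) in Klf4 dEC. Thick ascending limb-like nuclei were 26.50% (25.30 to 27.73) and 16.37% (15.48 to 17.30). The summed level of the 7 proximal tubule markers was lower in Klf4 dEC Nos3 null in 11 of 12 clusters of other types (unnamed cluster 7 left out), with a median log2 ratio of -0.42, sums from 7.70 to 86.4 against 9.47 to 68.6 in Klf4 dEC, and 0 of the markers at 0. The summed level of the 5 thick ascending limb markers was higher in 14 of 15 clusters of other types, with a median of 0.60, sums from 4.14 to 93.6 against 2.71 to 61.8 in Klf4 dEC, and at most 1 marker at 0. This did not hold for each segment: connecting tubule-like nuclei were 2.98% against 2.90% in Klf4 dEC while their markers were lower in 13 of 15 clusters of other types, and distal convoluted tubule markers were higher in 8 and lower in 8.

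This touches some of the shared genes. Of the 42 lower genes, 11 had a level at least 5-fold above the median segment in 1 segment, 9 of them in the proximal tubule (Keg1, Tnfaip8, Nox4, Pdzk1, Lrp2, Slc22a28, Slc13a1, Errfi1 and Fbp1). Slc12a3, the thiazide-sensitive cotransporter, had a log2 ratio of -0.15 in its own distal convoluted tubule-like cluster 9 and a median of -0.94 outside it. Of the 49 higher genes 2 had such a home segment, and 1 of them is Umod, at 0.40 in its home and a median of 0.74 outside. Umod stood in proximal tubule-like nuclei at 1.77 (control), 1.66 (Klf4 dEC) and 0.922 (Nos3 null), with 2.78 in Klf4 dEC Nos3 null. The part of these nuclei shares in the shared shifts was not tested. Markers of non-tubule cells were at low sums, with up to 5 of 7 endothelial markers at 0 in a cluster. Those of 7 endothelial genes were lower in 16 of 19 clusters (median sum 0.206 against 0.357 in Klf4 dEC) and those of 6 macrophage genes lower in 14 of 19 (0.216 against 0.284). Those of 7 stromal genes were lower in 15 of 18, while those of 5 T cell genes were higher in 14 of 19 (median log2 ratio 0.205).

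Genes of the circadian loop differed between the libraries in both directions. The 250 bases before an annotated start are printed from RefSeq (GRCm38.p6) for 2 of these genes, and for Bcl6, which is on neither clock list. They run 5′ to 3′ on the gene's strand, with motif matches in capitals. One motif is the E-box CACGTG, the site of Arntl with Clock or Npas2. The other is the RORE core TNGGTCA, with any base at N. This core is a loose form of the site of Rora and Nr1d1, so a match need not be a site that the loop uses. The windows are chr7:113207215-113207464 on the plus strand for Arntl, chr3:95882229-95882478 on the minus strand for Ciart and chr16:23988853-23989102 on the minus strand for Bcl6.
Arntl: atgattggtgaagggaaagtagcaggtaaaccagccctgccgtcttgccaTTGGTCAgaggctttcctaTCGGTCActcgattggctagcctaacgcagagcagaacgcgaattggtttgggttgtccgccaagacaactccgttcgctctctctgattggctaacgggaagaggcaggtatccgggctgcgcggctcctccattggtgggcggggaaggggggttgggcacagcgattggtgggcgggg
Ciart: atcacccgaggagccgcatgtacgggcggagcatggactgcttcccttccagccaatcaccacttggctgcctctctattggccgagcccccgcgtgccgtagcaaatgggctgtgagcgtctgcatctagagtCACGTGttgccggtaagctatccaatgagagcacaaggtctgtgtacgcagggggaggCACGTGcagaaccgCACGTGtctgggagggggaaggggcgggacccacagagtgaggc
Bcl6: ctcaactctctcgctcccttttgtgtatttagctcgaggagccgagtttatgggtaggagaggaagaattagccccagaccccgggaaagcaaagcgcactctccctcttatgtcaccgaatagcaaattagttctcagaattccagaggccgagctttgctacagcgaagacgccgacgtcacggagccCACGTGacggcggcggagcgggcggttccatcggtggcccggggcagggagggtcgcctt
In the printed windows Arntl has 2 RORE matches, 200 and 181 bases before the start used, and Ciart has 3 E-boxes at 116, 58 and 44 bases. Bcl6 has 1 E-box at 60 bases. The other listed window of Bcl6, chr16:23981284-23981533, held none of the motifs searched. Both strands were searched. The D-box TTATGTAA, with a match in 0.819% of windows, was searched as well and had no match in the 3 printed windows. The printed windows were chosen because they hold matches: the windows of Npas2, Clock, Dbp, Nr1d1, Nr1d2, Rora and Klf9 held none of the motifs searched. The Npas2 window, chr1:39194022-39194271, lies inside the gene span given below, so the bases before that span were not searched. The printed Bcl6 window overlaps the gene span given above by its last bases. An E-box stood in 6.02% and a RORE core in 9.19% of 32851 RefSeq promoter windows of this length. A match is a description of letters, not of binding.

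The activators Npas2 and Arntl were higher in Klf4 dEC Nos3 null, and their partner Clock was not. Npas2, on chromosome 1 from 39193702 to 39363240, stood in proximal tubule-like nuclei at 0.157 (control), 0.205 (Klf4 dEC) and 0.211 (Nos3 null), with 0.916 in Klf4 dEC Nos3 null, 4.46-fold (3.94 to 5.06) higher. The first 3 libraries lie close together and Klf4 dEC Nos3 null stands alone. Npas2 was above 0 in 12 of the 12 clusters it entered and past the limit in 9, against 0.409% to 15.3% of genes past it higher in single clusters. In principal cell-like cluster 8 its levels were 0.424, 0.293, 0.542 and 0.772, 2.63-fold (1.67 to 4.29) higher. Arntl stood in proximal tubule-like nuclei at 0.0831, 0.102, 0.201 and 0.439, 4.30-fold (3.60 to 5.15) higher, and in distal convoluted tubule-like cluster 9 at 0.444, 0.740, 1.07 and 1.49, 2.02-fold higher. Both of its values place Nos3 null between Klf4 dEC and Klf4 dEC Nos3 null. In principal cell-like cluster 8 Arntl was 1.02-fold (0.735 to 1.42) lower. Arntl was above 0 in 10 of 11 clusters entered. A low gene can enter through its higher library alone, as Npas2 did in cluster 8 at 0.293 against 0.772. The direction of such an entry is set by the filter, so the counts of clusters above 0 for Npas2 and Arntl are partly built in. Clock was above 0 in 7 of 19, with a median log2 ratio of -0.08, and the activator Rora in 3 of 19.

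Several repressors and output genes were lower in the proximal tubule, and others differed little. Per2 stood there at 0.715 (control), 0.684 (Klf4 dEC) and 0.515 (Nos3 null), with 0.358 in Klf4 dEC Nos3 null, 1.91-fold (1.72 to 2.13) lower. In cluster 8 Per2 differed by a factor of 1.05 (0.762 to 1.44). Ciart, a repressor of the loop, stood in proximal tubule-like nuclei at 0.358, 0.301, 0.0657 and 0.0476, 6.33-fold (4.87 to 8.35) lower, and here both libraries labelled Nos3 null were low. Dbp, a clock-driven transcription factor, stood at 0.474, 0.374, 0.284 and 0.132, 2.84-fold (2.40 to 3.37) lower. Its relative Tef, at 6.40, 5.54, 5.13 and 3.67, was 1.51-fold (1.46 to 1.56) lower. The repressors Per1 and Nr1d2 were 1.25-fold (1.12 to 1.39) and 1.15-fold (1.08 to 1.22) lower there, the output gene Hlf 1.05-fold (1.01 to 1.10) lower and the repressor Bhlhe40 1.17-fold (1.08 to 1.27) higher. Dbp and Ciart stayed under 0.5 in each cluster and so entered none. Over the list of core clock genes in the proximal tubule without cluster 12, 2 of 7 entered genes were above 0, with 2 past the limit higher and 1 lower, and the list median of -0.09 hides these opposite directions. The time of tissue collection is not among the labels.

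Klf9, a Krüppel-like factor induced by glucocorticoids that also cycles with the clock, was lower in 19 of 19 clusters and past the limit in 5. It stood in proximal tubule-like nuclei at 4.00 (control), 5.08 (Klf4 dEC) and 4.06 (Nos3 null), with 3.00 in Klf4 dEC Nos3 null, 1.69-fold (1.63 to 1.76) lower. In thick ascending limb-like nuclei it stood at 2.60, 3.47, 2.84 and 1.66, 2.09-fold (1.89 to 2.30) lower. In both segments Klf4 dEC was highest and Klf4 dEC Nos3 null lowest. Of the KLF family list, 0 of 6 entered genes were above 0 in the proximal tubule without cluster 12 (median -0.37), against 2993 of 4690 of all genes (median 0.11). In the thick ascending limb 1 of 6 was above 0 (median -0.61).

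**Figure D2:**
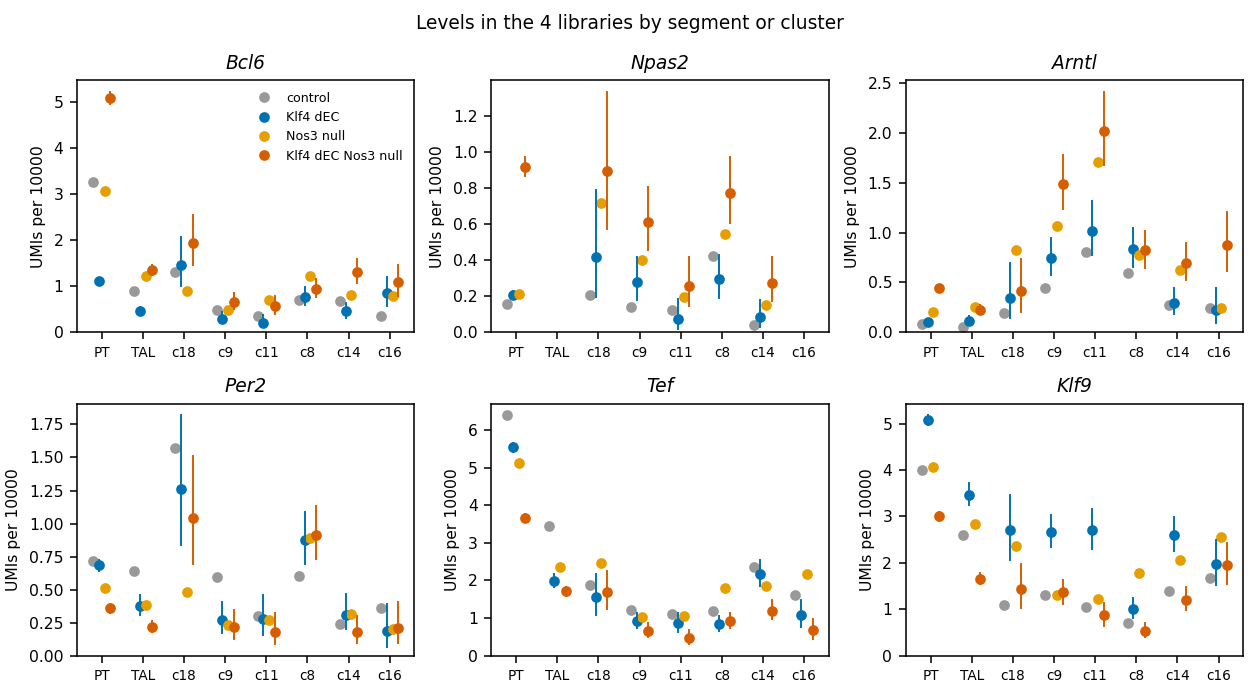
Level in UMIs per 10000 (y axis) of 6 genes in the 4 libraries (colors) by segment or cluster (x axis; PT, proximal tubule-like; TAL, thick ascending limb-like; c, cluster), with bars for the 95% counting interval in the compared libraries and no point where levels were too low to be listed. In PT, Bcl6 stands at 5.09 in Klf4 dEC Nos3 null against 1.12 in Klf4 dEC, while Klf9 stands at 3.00 against 5.08.

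Beyond the shared shifts, clusters of the same segment had like log2 ratios. Across the 2057 genes entered everywhere, Pearson's r between the log2 ratios of proximal tubule-like clusters had a median of 0.73 (range 0.55 to 0.86) over 10 pairs without cluster 12. Thick ascending limb-like clusters 2 and 4 had an r of 0.55, and proximal against thick ascending clusters a median of 0.38. Unnamed cluster 7 had a median r of 0.76 with the proximal tubule-like clusters, and cluster 12 a median of 0.18 with the rest. These r values are across genes, which are not replicates, and all clusters share the same pair of libraries, so a shift of the whole library is part of each r. Thick ascending limb-like cluster 2 with principal cell-like cluster 8 had an r of 0.51, against 0.24 for cluster 8 with distal convoluted tubule-like cluster 9.

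**Figure D3:**
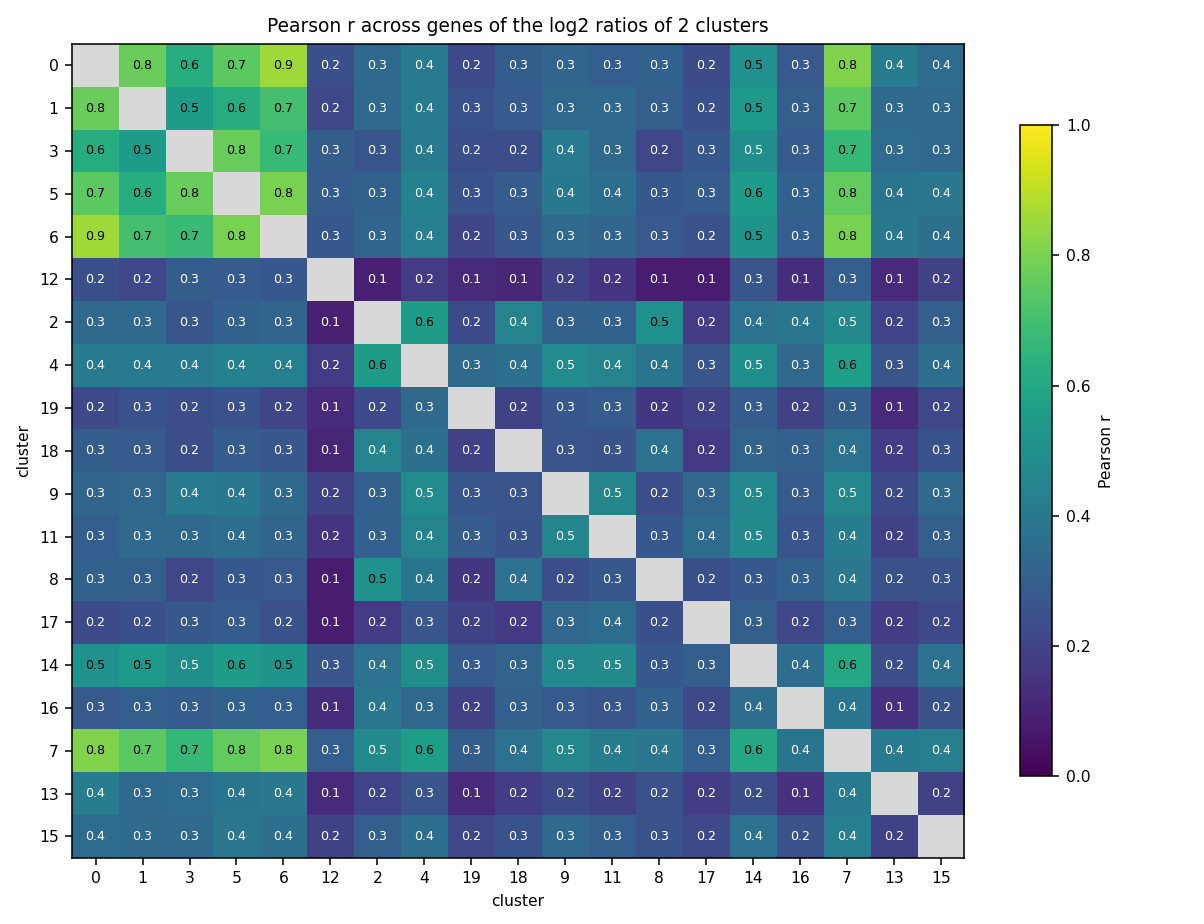
Pearson's r (color and number) across 2057 genes between the log2 ratios of each pair of clusters (x and y axes), grouped by segment. The proximal tubule-like clusters 0, 1, 3, 5 and 6 form a block with a median of 0.73, which cluster 7 joins, and cluster 12 has low values throughout.

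A gene was assigned to 1 segment when it was past the limit there (in at least 4 proximal tubule-like clusters, or 2 thick ascending limb-like ones), at least 1 beyond its median outside, within -0.5 and 0.5 outside, and entered in at least 5 clusters outside. Over all segments this gave 222 higher and 199 lower assignments. In the proximal tubule there were 4 higher (0.108% of 3689 genes) and 3 lower (0.0813%), and in the thick ascending limb 2 higher (0.0483% of 4137) and 0 lower (0.0%). Cluster 8 gave 13 (0.308%) and 24 (0.569%), cluster 9 gave 5 (0.122%) and 3 (0.0729%), and cluster 18 gave 69 (1.49%) and 42 (0.906%).

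The higher genes of the proximal tubule included 2 chaperones. Hsp90ab1, a constitutive Hsp90, stood at 0.581 (control), 0.578 (Klf4 dEC) and 0.566 (Nos3 null), with 1.83 in Klf4 dEC Nos3 null, 3.17-fold (2.93 to 3.42) higher. Hspa8, the constitutive Hsp70 on chromosome 9 from 40801276 to 40805202, stood at 1.13, 1.03, 1.29 and 2.86, 2.79-fold (2.63 to 2.95) higher. For both genes the other 3 libraries lie close together and Klf4 dEC Nos3 null stands above them. Hspa8 differed by a factor of 1.06 in thick ascending limb-like nuclei and 1.00 in cluster 8, while in unnamed cluster 7 it was 3.12-fold (2.67 to 3.65) higher. Of the heat shock list, 6 of 6 entered genes were above 0 in the proximal tubule without cluster 12 and 3 were past the limit (median 1.07, against 0.11 for all genes). In intercalated cell-like cluster 14, 5 of 5 were above 0 (median 0.87), and in the thick ascending limb 4 of 5 (median 0.22). Genes of the unfolded protein response, which act in the endoplasmic reticulum, went the other way in the proximal tubule without cluster 12. There 3 of 12 were above 0 and 4 were past the limit lower (median -0.57, against 0.11 for all genes). In the thick ascending limb 4 of 7 were above 0 (median 0.06). In the proximal tubule without cluster 12, Pdia4, a disulfide isomerase, was 2.71-fold (2.27 to 3.24) lower. Hspa5, the chaperone BiP, was 2.30-fold (2.08 to 2.54) lower there, at 0.391 against 0.899. By single clusters, Pdia4 entered in 1 only. Hspa5 was above 0 in 0 of the 15 clusters it entered and past the limit lower in 1 (median -0.45).

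The other genes assigned to the proximal tubule serve metabolism and signaling. Car5b, a mitochondrial carbonic anhydrase, stood at 0.245 (control), 0.234 (Klf4 dEC) and 0.256 (Nos3 null), with 0.596 in Klf4 dEC Nos3 null, 2.54-fold (2.25 to 2.89) higher, and in principal cell-like cluster 8 it was 1.97-fold (1.5 to 2.60) lower. The calcium sensor gene Hpcal1 was 2.23-fold higher. Irs2, which couples insulin receptors to their signal, stood at 0.296, 0.675, 0.497 and 0.199, 3.40-fold (2.97 to 3.90) lower, with Klf4 dEC the highest library and Klf4 dEC Nos3 null the lowest. Klf13 stood at 0.971, 1.25, 0.964 and 0.468, 2.67-fold (2.44 to 2.92) lower, and the noncoding C920021L13Rik was 3.04-fold lower.

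Genes expressed in few other clusters were counted apart, because a shift elsewhere could not be seen. They too had to be past the limit in the segment, with a counting interval that excludes 1. In the proximal tubule 4 were higher (0.108%), Hao2, Gm15860, Dgkg and Rdh16, and 8 lower (0.217%). Hao2, a peroxisomal hydroxyacid oxidase, stood at 0.635 (control), 0.327 (Klf4 dEC) and 0.687 (Nos3 null), with 0.796 in Klf4 dEC Nos3 null, 2.44-fold (2.19 to 2.71) higher. Rdh16, a retinol dehydrogenase, stood at 2.51, 1.40, 2.90 and 3.04, 2.17-fold (2.06 to 2.29) higher. In both, Klf4 dEC lies below 3 libraries that are near each other. Aacs, acetoacetyl-CoA synthetase, stood at 0.723, 1.91, 0.801 and 0.665, 2.87-fold (2.66 to 3.09) lower, and the phosphate transporter gene Slc20a1 at 0.682, 1.31, 1.08 and 0.559, 2.34-fold (2.15 to 2.54) lower. In these genes Klf4 dEC lies above the rest. Ces1d, a carboxylesterase chosen after its values were seen, had another order, at 2.52, 2.59, 1.54 and 0.877, 2.95-fold (2.77 to 3.15) lower.

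Some large proximal tubule differences fall outside these rules and were chosen after their values were seen. Nt5e, the ectonucleotidase CD73 that makes adenosine, stood at 1.38 (control), 0.894 (Klf4 dEC) and 1.36 (Nos3 null), with 4.42 in Klf4 dEC Nos3 null, 4.94-fold (4.66 to 5.24) higher. Abcb1b, a P-glycoprotein drug exporter, stood at 0.0481, 0.0237, 0.142 and 0.432, 18.3-fold (13.1 to 26.2) higher. For both genes Klf4 dEC was the lowest library and Klf4 dEC Nos3 null the highest. A list of sterol synthesis and uptake genes, also drawn up after the values were seen, was below 0 in 6 of 6 in cluster 9 (median -0.69) and above 0 in 7 of 7 in intercalated cell-like cluster 16 (median 1.07, with 4 past the limit). Of all genes, 65.3% were above 0 in cluster 9 and 57.6% in cluster 16, where 2.56% were past the limit higher. Msmo1 reached 0.5 only in Klf4 dEC in cluster 9 and only in Klf4 dEC Nos3 null in cluster 16. Entry thus set its direction in both, and these counts are partly built in.

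The transport genes that define the proximal tubule differed little. Of 20 on the list, 7 were above 0 and 0 past the limit in the proximal tubule without cluster 12 (median -0.10). Slc34a1, the sodium-phosphate cotransporter, stood at 50.6 (control), 59.0 (Klf4 dEC) and 51.4 (Nos3 null), with 56.2 in Klf4 dEC Nos3 null, 1.05-fold (1.04 to 1.06) lower. Fatty acid oxidation genes were above 0 in 9 of 13 (median 0.33), a share near the 2993 of 4690 of all genes (median 0.11). Among them Angptl4, a lipase inhibitor induced by PPAR receptors, stood at 0.183, 0.0960, 0.111 and 0.317, 3.30-fold (2.73 to 4.00) higher, and Pdk4, which shuts carbohydrate out of oxidation, was 4.93-fold (3.77 to 6.53) higher at 0.213 against 0.0433.

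In the thick ascending limb, Gpc5, a glypican, stood at 6.30 (control), 6.55 (Klf4 dEC) and 2.37 (Nos3 null), with 9.23 in Klf4 dEC Nos3 null. It was 1.41-fold (1.33 to 1.49) higher over the joined clusters, with log2 ratios of 0.15 in cluster 2, 1.36 in cluster 4 and 1.08 in cluster 19. The noncoding Gm17276 stood at 2.77, 2.85, 4.45 and 6.29, 2.21-fold (2.04 to 2.40) higher. Of genes expressed in few other clusters, 5 were higher (0.121%) and 9 lower (0.218%). Rbm20, Zmynd12 and Ier3 led the higher and Gm42697, Vps37b and 1700126G02Rik the lower ones. Vps37b, a subunit of the ESCRT-I complex, stood at 0.438, 1.2, 0.594 and 0.463, 2.60-fold (2.18 to 3.11) lower, with Klf4 dEC above the rest. Chosen after their values were seen, Il7, a lymphocyte growth factor, stood at 0.420, 0.897, 0.0650 and 0.333, 2.69-fold (2.18 to 3.32) lower, and Slc25a33, a mitochondrial pyrimidine carrier, at 0.475, 0.751, 0.185 and 0.193, 3.90-fold (3.02 to 5.07) lower. The salt transport genes differed little: 10 of 15 were above 0 (median 0.07) and Slc12a1 stood at 214, 215, 110 and 203. Casr, the calcium-sensing receptor, was 1.83-fold (1.70 to 1.98) lower, at 2.72 against 4.98.

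A list of corticosteroid genes, which holds receptors and enzymes of the steroids beside responsive genes, was mixed in the thick ascending limb. There 3 of 8 were above 0 and 2 past the limit lower (median -0.76, against 0.12 for all genes). Zbtb16, a steroid-induced repressor, stood at 6.44 (control), 2.84 (Klf4 dEC) and 1.77 (Nos3 null), with 1.06 in Klf4 dEC Nos3 null, 2.69-fold (2.39 to 3.02) lower. Fkbp5, a co-chaperone of the glucocorticoid receptor, stood at 7.36, 2.92, 1.72 and 1.37, 2.13-fold (1.91 to 2.37) lower. For both the control was highest and the 3 mutant libraries descended in the same order. In cluster 8 Fkbp5 was 1.72-fold (1.26 to 2.36) higher. Zbtb16 had log2 ratios of 1.78, 1.34 and 1.47 in proximal tubule-like clusters 0, 5 and 6.

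Some genes were past the limit in both principal cell-like cluster 8 and thick ascending limb-like cluster 2. Of the 77 lower genes of cluster 8 (1.83% of 4219) and the 58 of cluster 2 (1.43% of 4054), 13 were lower in both. Of the higher genes (1.59% and 1.28%), 2 were higher in both. The overlap is not particular to these clusters. Of the 13, Gm15261 was past the limit lower in 14 of 17 clusters, and Ehf and St3gal6 were so in clusters 16 and 18 too. The overlapping genes were chosen after their values were seen, by a rule that already asks for high levels in Klf4 dEC. Ranbp3l, a Ran-binding nuclear export factor on chromosome 15 from 8967949 to 9067335, stood in thick ascending limb-like nuclei at 4.78 (control), 32.3 (Klf4 dEC) and 4.07 (Nos3 null), with 6.80 in Klf4 dEC Nos3 null, 4.75-fold (4.55 to 4.95) lower. Its log2 ratio was -2.66 in cluster 2 and -0.83 in cluster 4. In cluster 8 it stood at 4.30, 43.6, 2.66 and 9.23, and in intercalated cell-like cluster 16 at 1.98, 10.8, 1.08 and 1.48, 7.25-fold (5.52 to 9.67) lower. The Klf4 dEC library thus held far more Ranbp3l than any other in these 3 kinds of tubule. In thin limb-like cluster 18 the log2 ratio of Ranbp3l was -2.07. In proximal tubule-like nuclei Ranbp3l was 1.12-fold (1.06 to 1.17) lower. Akr1b3, aldose reductase, which makes the osmolyte sorbitol, stood in cluster 8 at 0.339, 3.64, 0.0656 and 0.450, 8.09-fold (5.88 to 11.4) lower, and in thin limb-like cluster 18 at 1.16, 13.8, 0.180 and 1.13, 12.2-fold (8.39 to 18.4) lower. Defb1, a beta-defensin, stood in cluster 8 at 3.46, 10.4, 2.89 and 2.24 and in cluster 9 at 9.14, 10.4, 4.19 and 8.76, so that its 4.64-fold (4.00 to 5.40) difference in cluster 8 was 1.18-fold in cluster 9.

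**Figure D4:**
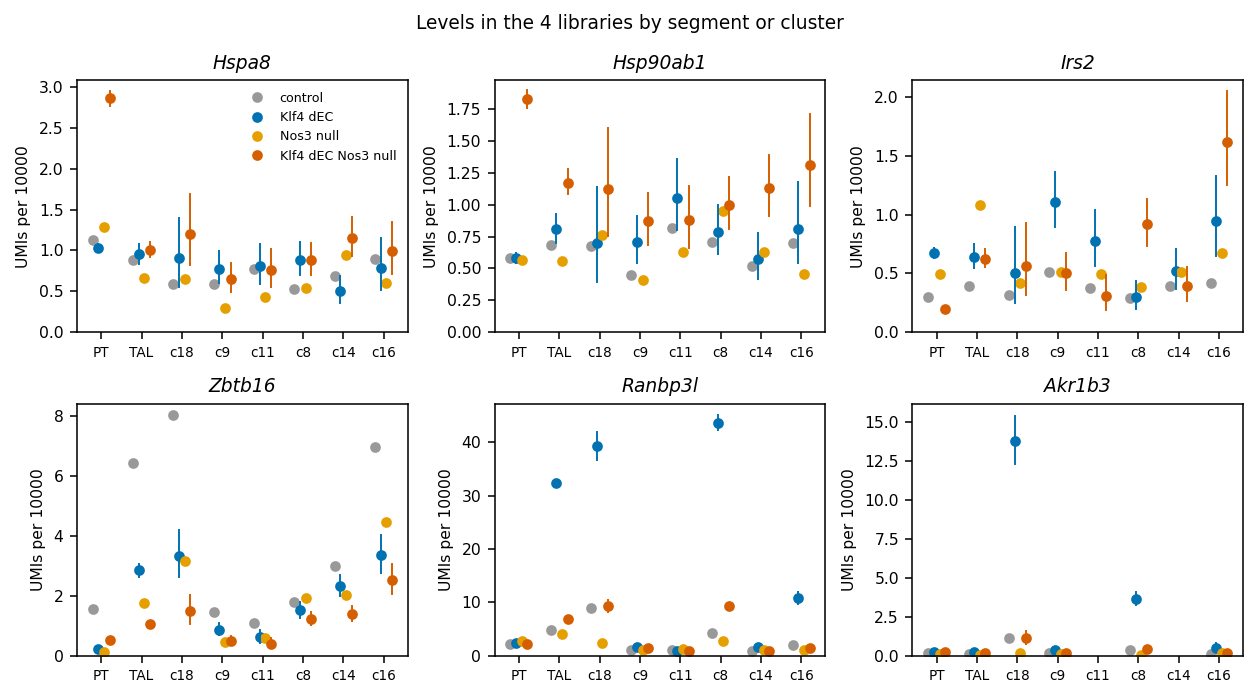
Level in UMIs per 10000 (y axis) of 6 genes in the 4 libraries (colors) by segment or cluster (x axis; PT, proximal tubule-like; TAL, thick ascending limb-like; c, cluster), with 95% counting intervals as bars for the compared libraries and no point where levels were too low to be listed. Hspa8 and Hsp90ab1 stand above the other libraries in PT in Klf4 dEC Nos3 null, while Klf4 dEC stands far above the others for Ranbp3l in TAL, c18, c8 and c16 and for Akr1b3 in c18 and c8.

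In cluster 8 the assigned genes were led by Abhd3, Sik1 and Zfp521 higher and Slco4a1, Cnnm1 and Abhd2 lower. Slco4a1, an organic anion transporter, stood at 0.316 (control), 4.62 (Klf4 dEC) and 0.116 (Nos3 null), with 0.314 in Klf4 dEC Nos3 null, 14.7-fold (10.2 to 22) lower. Abhd3, a phospholipase, stood at 0.543, 0.331, 0.404 and 1.79, 5.42-fold (3.65 to 8.32) higher, and the salt-inducible kinase gene Sik1 at 0.0649, 0.0983, 0.303 and 0.859, 8.74-fold (4.35 to 20.1) higher. Cnnm1 was 5.01-fold (3.43 to 7.50) lower and Abhd2 4.5-fold (3.39 to 6.07) lower. The lower genes again have Klf4 dEC as the highest library, and the higher genes have Klf4 dEC Nos3 null. Cpt1a, the gate of mitochondrial fatty acid import, stood at 1.34, 0.870, 1.87 and 3.25, 3.74-fold (2.90 to 4.86) higher. Of 11 sodium channel and water channel genes, 7 were above 0 (median 0.21), near the 63.9% of all genes above 0 in this cluster (median 0.12). Aqp2, the vasopressin-regulated water channel, stood at 3.21, 6.88, 4.68 and 11.9, 1.73-fold (1.56 to 1.91) higher, and Aqp3 at 0.971, 1.27, 1.03 and 3.43, 2.71-fold (2.18 to 3.38) higher. Aqp4 was 2.22-fold (1.93 to 2.57) lower, at 2.95 against 6.57.

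The distal convoluted tubule-like cluster 9 kept the level of its own cotransporter, with Slc12a3 at 189 (control), 212 (Klf4 dEC) and 176 (Nos3 null), with 191 in Klf4 dEC Nos3 null, 1.11-fold (1.08 to 1.13) lower. Wnk4, a kinase that governs it, was 1.67-fold (1.47 to 1.90) higher. Gsap (5.16-fold, 2.48 to 12), Pde1a (2.76-fold, 2.28 to 3.35) and Tiparp (2.49-fold, 1.46 to 4.40) led the higher genes there. Pde1a, a calcium-activated phosphodiesterase that degrades cyclic GMP and cyclic AMP, stood at 2.55, 1.74, 3.20 and 4.81. Bmp6 led the lower genes at 1.12, 1.04, 1.98 and 0.329, 3.17-fold (2.04 to 5.05) lower, with Klhl32 and Kctd8 next. Nos1, the tubular nitric oxide synthase, was low in thick ascending limb-like nuclei, at 0.132 against 0.145 in Klf4 dEC, 1.10-fold lower with an interval (0.712 to 1.69) that includes 1.

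In connecting tubule-like cluster 11, 5 genes were higher (0.125%) and 6 lower (0.15%). Dennd3 (3.28-fold, 1.67 to 6.98), 9130230L23Rik (4.27-fold, 2.59 to 7.39) and Sec14l1 (2.41-fold, 1.61 to 3.69) led the higher genes, and Gpc5, Cacnb2 (a calcium channel beta subunit) and Rnf181 the lower. Gpc5 there stood at 2.92 (control), 3.33 (Klf4 dEC) and 0.791 (Nos3 null), with 0.944 in Klf4 dEC Nos3 null, with both libraries labelled Nos3 null low. This is opposite to the thick ascending limb, where Klf4 dEC Nos3 null had the highest Gpc5 level.

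In the intercalated cell-like clusters, cluster 14 gave 6 higher (0.141%) and 4 lower (0.0937%) and cluster 16 gave 19 higher (0.442%) and 24 lower (0.559%). Cadm2 (5.62-fold, 2.55 to 14.4), Gsap (3.08-fold, 2.22 to 4.33) and Clic1 (2.75-fold, 1.55 to 5.10) led the higher genes of cluster 14 and Abhd2 (4.52-fold, 2.95 to 7.18), Gmfb and Enpp6 the lower. Foxi1, the transcription factor that specifies intercalated cells, stood in cluster 14 at 0.617, 0.232, 0.349 and 0.887, 3.82-fold (2.24 to 6.85) higher. Slc26a4, which marks the bicarbonate-secreting kind, stood there at 99.7, 89.2, 79.0 and 96.8, near level. In cluster 16, 5730522E02Rik, Nedd9 (2.74-fold, 1.99 to 3.84) and Gpd2 led the higher genes and Ranbp3l, Tenm2 and Sgcz the lower.

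Thin limb-like cluster 18 had 103 nuclei in Klf4 dEC Nos3 null and 119 in Klf4 dEC. Slc8a1, the sodium-calcium exchanger, stood there at 2.29 (control), 9.15 (Klf4 dEC) and 13.4 (Nos3 null), with 0.922 in Klf4 dEC Nos3 null, 9.93-fold (6.51 to 15.8) lower. In the summed markers of the connecting tubule, of which Slc8a1 is 1, 13 of 15 clusters of other types were lower (median -0.29), and its part in this value was not tested. Col4a3, a collagen IV chain, stood at 18.1, 42.8, 6.55 and 10.9, 3.91-fold (3.43 to 4.48) lower, and Galm was 4.36-fold (2.40 to 8.44) lower. Pde1c (12-fold, 3.96 to 56.9), Clic1 (4.89-fold, 1.90 to 15.8) and Clec2d (3.31-fold, 1.56 to 7.83) led the higher genes. Slc14a2, the urea transporter of thin limb and inner medulla, stood at 6.86, 3.80, 1.25 and 20.6, 5.44-fold (4.32 to 6.92) higher, and the protease gene Corin at 21.6, 3.45, 2.55 and 16.1, 4.67-fold (3.65 to 6.03) higher. Both were chosen after their values were seen, and Corin was highest in the control.

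The clusters that are not named tubule gave 1 higher and 1 lower assignment in cluster 7 (0.024% each), 28 (0.594%) and 36 (0.764%) in cluster 13, 20 and 20 in podocyte-like cluster 15 (0.536% each) and 50 (1.17%) and 36 (0.84%) in cluster 17. In cluster 15 Rbfox1, a splicing regulator, stood at 6.54 (control), 4.05 (Klf4 dEC) and 11.6 (Nos3 null), with 16.1 in Klf4 dEC Nos3 null, 3.97-fold (3.32 to 4.78) higher, with Jup and 4930523C07Rik next and Phactr1 (5.91-fold, 3.44 to 10.8), Arrdc3 and Clic1 lower. In cluster 13 Rbfox1 was 3.87-fold (3.05 to 4.97) lower, beside Arl13b (9.21-fold, 4.03 to 26.5) and Adam22, while Lypd6b (15.4-fold, 4.24 to 92.5), Chst9 and Zdhhc21 were higher. Podocyte genes themselves were near level, with the slit diaphragm gene Nphs1 at 18.4, 23.3, 16.7 and 21.8. In cluster 17, with 70 and 129 nuclei, 9130230L23Rik, Sik1 and Cables1 led the higher genes and Smad5, Ndufa6 and Impa2 the lower.

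**Figure D5:**
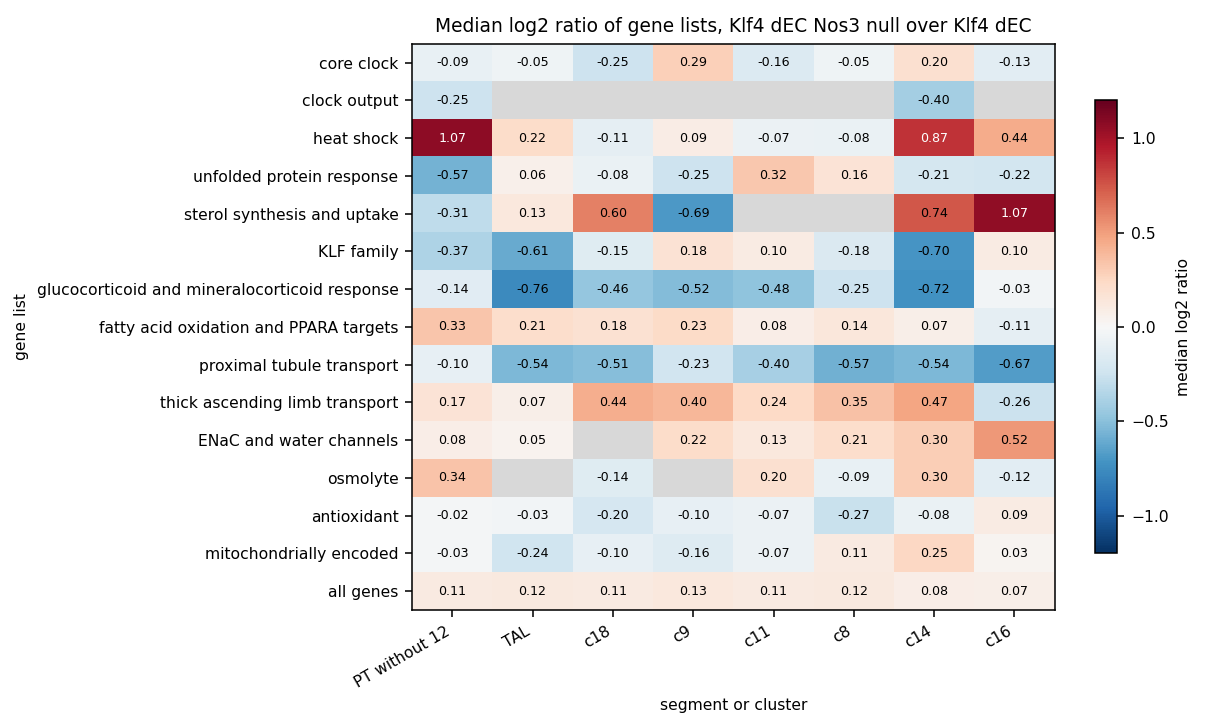
Median log2 ratio (color and number) of 15 gene lists (rows) by segment or cluster (columns; PT without 12, proximal tubule-like without cluster 12; TAL, thick ascending limb-like; c, cluster), gray where fewer than 3 genes entered. Heat shock genes stand at 1.07 in PT and 0.22 in TAL, corticosteroid genes at -0.76 in TAL.

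The Y-linked Uty stood over the 19 clusters at 2.92 (control), 2.87 (Klf4 dEC) and 2.88 (Nos3 null), with 2.93 in Klf4 dEC Nos3 null, and Kdm5d at 0.490, 0.465, 0.496 and 0.585, so each library holds RNA of male mice at similar levels. Kap, the androgen-regulated protein of the proximal tubule, stood there at 20.4, 26.8, 7.52 and 37.1, 1.39-fold higher, and in thick ascending limb-like nuclei at 18.8, 30.5, 4.16 and 18.7, 1.63-fold lower. Of 7 androgen-responsive genes, 3 were above 0 in the proximal tubule without cluster 12 (median -0.08).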

How the data were processed

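Nuclear RNA of kidney cortex from 4 mouse genotypes, 1 library each, was measured on the 10X Chromium system, per the labels. Cell Ranger, Seurat and mm10 are named, without versions, in notes credited here as the submitters' processing notes. The authors deposited a normalized signal, which by its values is the mean over nuclei of UMIs per 10000, for 21046 genes in 92 columns (23 clusters by 4 libraries). Per the column names the clusters are the authors', and no source names a treatment of doublets or free RNA. Column names were tied to libraries through the titles, leaving 0 columns over.

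Nuclei numbers were inferred from the whole-number reciprocals of the lowest 300 values of a column. A number had to divide at least 70% of them within a relative tolerance of 1e-13. Median UMIs and effective UMIs came from all values of the column whose reciprocal was a whole multiple of that number. They are the median and harmonic mean of the distinct totals so found, at 200 or more, not of all nuclei. This recovery and the counting intervals were tested on simulated data. Clusters were called X-like from marker genes. The log2 ratio used a pseudocount of 0.1, which understates low genes, and a filter of 0.5. With 1 library a side no test was run.

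Named are the 12 highest and 12 lowest shared genes, the 3 highest and 3 lowest of each segment by excess over the outside median, up to 4 members of each list furthest from 0, Klf4, Nos3, sex-linked genes and Kap. Genes named otherwise were chosen after their values were seen. The members, lists and rules were chosen with earlier results of these data known. Coordinates and promoters are from RefSeq (GRCm38.p6), the build family of mm10. Python 3.11.15, numpy 2.4.6, pandas 2.3.3, scipy 1.17.1 and matplotlib 3.10.9 were used. The alternatives were other pseudocounts, filters, scalings, cluster sets and rule limits.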

Additional observations from a re-analysis of the deposited data

Results flagged for a closer look

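Of 5095 genes entered in at least 2 of the 7 tubule segments, 8 were past the limit in opposite directions in a pair of them. They are listed by the difference between their log2 ratios in those segments. With 1 library a side these differences were not tested.

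Msmo1, an enzyme of cholesterol synthesis, differed by 3.05: it was 5.06-fold (2.06 to 15.3) higher in intercalated cell-like cluster 16 and 3.14-fold (1.69 to 6.21) lower in distal convoluted tubule-like cluster 9. Cacnb4, a calcium channel beta subunit, differed by 3.03. It stood in proximal tubule-like nuclei at 0.467 (Klf4 dEC) and 1.57 (Klf4 dEC Nos3 null), and in cluster 16 at 1.80 and 0.584. The noncoding 9130230L23Rik differed by 3.0, with 4.27-fold (2.59 to 7.39) higher levels in connecting tubule-like cluster 11 and 2.48-fold (1.48 to 4.26) lower ones in cluster 16. Zfp521, a zinc-finger factor, differed by 2.86, higher in principal cell-like cluster 8 and lower in cluster 16.

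Irs2 differed by 2.72. It was 3.06-fold (1.96 to 4.91) higher in cluster 8, at 0.918 against 0.3, and 3.40-fold (2.97 to 3.90) lower in proximal tubule-like nuclei, at 0.199 against 0.675. Pde10a, a cyclic nucleotide phosphodiesterase, differed by 2.54. In cluster 8 it stood at 1.08 (Klf4 dEC) and 2.89 (Klf4 dEC Nos3 null), and in cluster 9 at 7.61 and 3.27. Gmfb differed by 2.25 between cluster 16, where it was higher, and cluster 14, where it was lower, both of them intercalated cell-like. Paics, an enzyme of purine synthesis, differed by 2.24, higher in cluster 16 and lower in cluster 11.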

How the results depend on the processing

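The counts of higher and lower genes, and which of them is larger, move with the pseudocount, the filter and the scaling. As reported there were 2391 higher and 1905 lower pairs, 49 and 42 shared genes and 222 and 199 segment genes. A pseudocount of 0.5 left 549 higher and 573 lower pairs, 9 and 27 shared genes and 32 and 64 segment genes. A filter at 1 per 10000 left 1043 and 999 pairs, 21 and 18 shared genes and 66 and 83 segment genes, and no filter gave 6735 and 5577, 93 and 121, and 1070 and 835. Median-ratio rescaling gave 1994 and 2208 pairs, 27 and 61 shared genes and 201 and 212 segment genes. Lower thus outnumbered higher in pairs and segment genes with the pseudocount of 0.5 and after rescaling, and in segment genes with the filter at 1 and the excess of at least 1.5. Without clusters 7, 13, 15 and 17 there were 74 higher shared genes and 111 and 106 segment genes. Entry in at least 8 clusters gave 130 and 86 shared genes, a median of at least 1 left 1 and 6, and an excess of at least 1.5 left 48 and 63 segment genes. The cause of these moves was not tested.

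The split of shared genes depends on the setting: 53.85% were higher as reported, 25.0% with the pseudocount of 0.5, 30.68% after rescaling, 43.46% with no filter and 14.29% at a median of at least 1. Rescaling shifted the median log2 ratio by -0.09 and kept 69 of the 91 shared genes, and the pseudocount of 0.5 kept 36. A setting without cluster 12, chosen after seeing the data, gave 52 and 36 shared genes and 217 and 193 segment genes. No cluster was under 50 nuclei, so that alternative equals the reported values. No paired analysis was possible because each genotype has 1 library, and for the same reason no replicate could be left out. Depth limits low genes most in clusters 12, 17, 18 and 19.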
